A study of Mus musculus with 8 samples.

Results

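The mouse mitochondrial genome encodes 13 proteins, and 10 of their transcripts were chosen here by name: mt-Nd1, mt-Nd2, mt-Nd4, mt-Nd5, mt-Nd6, mt-Cytb, mt-Co1, mt-Co2, mt-Co3 and mt-Atp6, out of 27998 genes in the count matrices. All 10 were found in both matrices, and no filter on low values removed any of them. The remaining 3, mt-Nd3, mt-Nd4l and mt-Atp8, were read for comparison, and "mitochondrial UMIs" means the UMIs (unique molecular identifiers, each standing for 1 captured transcript) of all 13. The cells were EpCAM+ epithelial cells sorted from small intestinal crypts of adult female mice. The KO mice lacked ieCtnnb1, an enhancer upstream of Ctnnb1, and the mice labelled WT were, per the study's methods, controls with an enhancer reporter inserted at H11 rather than unmodified wild-type animals. The labels list 4 samples in each group, but the animals of a group had been pooled and each group came as 1 matrix with no map from barcodes to samples. The study's own texts disagree on how many animals were pooled, and this was not resolved. Each group was therefore 1 sample, no test between groups was possible, and every interval given is an exact 95% interval that covers counting error only.

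Mitochondrial DNA is transcribed from both strands into long precursors, from which the messenger RNAs are released by cutting out the transfer RNAs that lie between them. Most of the messengers receive short poly(A) tails, which a 3-prime droplet assay can capture; that of mt-Nd6 is known as an exception without a regular tail. The proteins are core subunits of oxidative phosphorylation: the Nd proteins belong to complex I, which oxidizes NADH, Cytb to complex III, the Co proteins to complex IV, cytochrome c oxidase, and Atp6 and Atp8 to the ATP synthase, complex V. All other subunits of these complexes come from nuclear genes. In single-cell work a high share of mitochondrial transcripts is used as a sign of a damaged cell, and it also differs between healthy cell types.

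The ends of 9 of the annotated genes are shown because the part of these genes in the mitochondrial UMIs stood apart between the matrices over all cell classes. mt-Nd4 stood apart too, by the smallest fold, and is not printed. The letters are the last 30 bases of each gene as annotated in GENCODE M21 (build GRCm38), 5′ to 3′, and capitals mark bases that the annotation also gives to another mitochondrial gene.
mt-Nd1: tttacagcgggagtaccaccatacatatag
mt-Nd2: ctacccctagccccccaactaattacctag
mt-Nd3: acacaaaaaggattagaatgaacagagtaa
mt-Nd4l: gtccaaaatctcaacctactacaATGCTAA
mt-Nd5: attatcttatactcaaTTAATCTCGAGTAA
mt-Nd6: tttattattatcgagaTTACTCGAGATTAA
mt-Cytb: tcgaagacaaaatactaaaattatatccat
mt-Atp8: TATTTGCCTCATTCATTACCCCAACAATAA
mt-Atp6: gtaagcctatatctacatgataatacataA
All of these are exonic, each gene having a single exon. The ends of mt-Atp8 and mt-Nd4l are those of the reading frames and not of messengers. Each shares 1 messenger with the gene downstream of it, mt-Atp6 and mt-Nd4. The other ends are those of the annotated genes, and where their messengers end was not examined. mt-Nd6 (chrM:13552-14070) was the only one of the 13 on the minus strand, and its last 14 bases lie opposite the last 14 bases of mt-Nd5 (chrM:11742-13565). mt-Atp8 (chrM:7766-7969) and mt-Atp6 (chrM:7927-8607) share 43 bases of the same strand, so that the whole of the printed mt-Atp8 end is also mt-Atp6 sequence. mt-Nd4l (chrM:9877-10173) shares its last 7 bases with mt-Nd4 (chrM:10167-11544). Whether the counting used the strand is not given in the sources used here. Reads of mt-Atp8 and mt-Atp6, of mt-Nd4l and mt-Nd4, and of mt-Nd5 and mt-Nd6 are therefore uncertain where they fall in the shared bases.

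Nuclear pseudogenes carry copies of several of these genes. Among windows of 31 bases, an exact copy in a transcript of a nuclear gene of GENCODE M21 was found for all 654 of mt-Co2, and for 99.9% of those of mt-Co3, 99.5% for mt-Atp6, 98.9% for mt-Nd4l and 98.1% for mt-Nd3. The share was 63.9% for mt-Co1, 62.8% for mt-Nd4, 16.8% for mt-Nd5, 13.5% for mt-Nd2, 7.47% for mt-Atp8, 7.36% for mt-Nd6, 6.55% for mt-Cytb and 0 for mt-Nd1. Of the nuclear genes that hold such copies, 1 (Gm4076) was among the genes counted, and it had 0 UMIs in kept barcodes of both matrices. How reads that match several places were treated can therefore touch the first 5 of these genes in particular, and its part in the results was not tested.

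There were 15987 barcodes with 134876816 UMIs in WT and 12763 with 123794575 in KO, and 57 barcode sequences occurred in both. The 13 mitochondrial genes gave 7382124 UMIs in WT and 9257797 in KO. With the limits of the study, at least 200 genes and at most 30% mitochondrial UMIs, 13095 WT and 8658 KO barcodes were kept, with a median of 6675 and 8692 UMIs. In kept barcodes Ctnnb1 had 119 UMIs per 1000000 in WT and 91.8 in KO. Markers of other cell types were near 0: the 7 measured immune markers summed to 134 UMIs in WT and 72 in KO, 5 erythroid ones to 8 and 0, 3 endothelial ones to 35 and 11, and 4 mesenchymal ones to 5 and 2. No list exceeded 1.02 UMIs per 1000000, and 0, 2, 1 and 2 markers of the lists were at 0 in WT and 0, 5, 2 and 3 in KO.

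In kept WT barcodes the 10 transcripts made up 4.33% of all UMIs (4.33% to 4.34%) and 98.2% of the mitochondrial UMIs. mt-Atp6 of complex V and mt-Co3 and mt-Co2 of complex IV led on a scale divided by length. As a share of the mitochondrial UMIs per 1000 bases of transcript, mt-Atp6 stood highest at 31.5%, followed by mt-Co3 at 24.1% and mt-Co2 at 20.2%. Next came mt-Cytb at 9.53%, mt-Co1 at 9.47%, mt-Nd1 at 5.73%, mt-Nd4 at 5.29% and mt-Nd2 at 4.12%. mt-Nd5 was low at 0.769% and mt-Nd6, the gene on the other strand, lowest at 0.137%. In KO the order on the same scale was mt-Atp6 (25.8%), mt-Co3 (24.9%), mt-Co2 (20.02%), mt-Cytb (15.7%), mt-Co1 (9.0%), mt-Nd1 (7.08%), mt-Nd4 (4.87%), mt-Nd2 (2.83%), mt-Nd5 (0.312%) and mt-Nd6 (0.0108%). Without the division by length the order was not the same in both: mt-Atp6 led in WT with 21.4% of the mitochondrial UMIs and mt-Co3 in KO with 19.5%, while mt-Cytb had 10.9% in WT, behind 4 other members, and 17.9% in KO, behind mt-Co3 alone. mt-Nd4 stood above mt-Nd1 in WT and just below it in KO. In WT mt-Co1 (14.6%) stood above mt-Co2 (13.8%) without the division. As each UMI stands for 1 captured transcript, the undivided shares are the ones that rank transcript numbers.

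The question of the KO against WT comparison is whether loss of the enhancer goes with other transcript levels in crypt cells. The mitochondrial transcripts differed between the matrices in their proportions. With 1 library per group, of a chemistry and software version that the sources do not settle, a difference between the genotypes cannot be told apart here from one in library chemistry or processing. In kept barcodes mt-Cytb, the only mitochondrially encoded subunit of complex III, made up 10.9% of the mitochondrial UMIs of WT and 17.9% of those of KO (log2 ratio 0.72, 0.71 to 0.72). mt-Nd1, a complex I subunit in the membrane arm near the quinone site, made up 5.49% and 6.78% (log2 ratio 0.31, 0.30 to 0.31). These were the members with the higher part in KO apart from mt-Co3.

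Other members of complex I had the lower part in KO. mt-Nd6 was 0.0710% of mitochondrial UMIs in WT (4113 UMIs) and 0.00558% in KO (338 UMIs), a log2 ratio of -3.67 (-3.83 to -3.51), or 12.7-fold lower. mt-Nd5, a proton-pumping subunit, made up 1.40% and 0.569% (log2 ratio -1.30, -1.32 to -1.28). mt-Nd2 was 4.28% and 2.94%, a log2 ratio of -0.54 (-0.55 to -0.53), and mt-Nd4 was 7.29% and 6.71%, a log2 ratio of -0.12 (-0.13 to -0.11). So within complex I the differences ran in both directions, and their size went from 1.09-fold to 12.7-fold.

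The cytochrome c oxidase genes were nearly level when all kept barcodes were summed. mt-Co1 was 14.6% in WT and 13.9% in KO, mt-Co2 13.8% and 13.7%, and mt-Co3 18.9% and 19.5%. Their log2 ratios were -0.07, -0.01 and 0.05, and that of mt-Co1 changed sign under 3 of 7 alternatives. mt-Atp6 of complex V made up 21.4% and 17.6% (log2 ratio -0.29, -0.29 to -0.28). The 3 mitochondrial genes outside the list all had the lower part in KO: mt-Atp8 was 0.272% in WT (15748 UMIs) and 0.0158% in KO (958 UMIs), 17.2-fold lower, mt-Nd3 0.861% and 0.242%, and mt-Nd4l 0.655% and 0.189%.

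Measured against all UMIs rather than the mitochondrial ones, 1 of the 10 members was at least 1.5-fold higher in KO (mt-Cytb), against 18.6% of the 12767 genes with at least 50 UMIs over both matrices. At least 1.5-fold lower were 2 members (mt-Nd5 and mt-Nd6), against 20.5% of those genes, and both shares of the members are at or under those of all genes. At least 8-fold lower was 1 member, mt-Nd6, against 0.282% of all genes (36 of 12767), and mt-Atp8 passed this fold too. The median log2 ratio of the 10 members was 0.13 and that of all genes tested -0.05.

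Across the 13 genes, the genes that took a small part of the mitochondrial UMIs in WT were the ones with the lowest ratios. Spearman's rho between the log2 KO to WT ratio and the WT share was 0.76, with the share per 1000 bases 0.78, with transcript length 0.56 and with the percentage of A in the sequence -0.30. These are descriptions over 13 genes that share the same libraries.

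Cell classes were gated by marker genes in kept barcodes with at least 2000 UMIs of nuclear genes, which left 9002 WT and 4583 KO barcodes in a class. Stem cells of the crypt base are called CBC-like here and dividing progenitors TAC-like. Of the secretory types, Paneth cells are PC-like, goblet cells GC-like, hormone cells EEC-like and tuft cells TC-like. Enterocytes are imEC-like where immature and mEC-like where mature. The cuts were set after the marker levels had been seen, so the classes are ranges of a score and not sharp types. Within 25% of a cut lay 874 WT and 481 KO barcodes for CBC, 1017 and 886 for imEC, and 256 and 231 for PC. Paneth transcripts were found in all other classes too, with a median of 257 to 535 Paneth marker UMIs per 10000 nuclear UMIs in WT and 129 to 186 in KO, against 3689 and 3395 in PC-like barcodes. Paneth transcripts outside the PC-like class were thus the more abundant in WT, and their part in the results was not tested.

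For 7 of the 10 members the part in the mitochondrial UMIs differed between the matrices in 1 direction in every class. mt-Cytb was 10.4% to 11.4% of mitochondrial UMIs over the 8 WT classes and 16.3% to 19.1% over the 8 KO classes, so the ranges did not overlap. mt-Nd1 was 5.22% to 5.88% in WT and 6.39% to 7.28% in KO. On the lower side, mt-Nd6 was 0.0556% to 0.102% in WT and 0.00363% to 0.0124% in KO, mt-Nd5 1.35% to 1.53% and 0.493% to 0.633%, mt-Nd2 3.90% to 4.36% and 2.79% to 3.10%, and mt-Nd4 7.14% to 7.54% and 6.35% to 6.97%. mt-Atp6 was 20.5% to 21.6% in WT and 16.3% to 18.1% in KO. For these 7 members no class of one matrix reached into the range of the other, whereas mt-Co1, mt-Co2 and mt-Co3 overlapped. Of all 13 mitochondrial genes, 8 were lower and 2 higher in KO in this way. The same count was not made over all genes, so how common such a gap is cannot be said.

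The class ratios lay close together. For mt-Cytb the log2 ratio of the share of mitochondrial UMIs ran from 0.63 in mEC-like to 0.78 in TC-like barcodes, for mt-Nd1 from 0.24 in mEC-like to 0.40 in GC-like, and for mt-Nd5 from -1.45 in PC-like to -1.21 in CBC-like. mt-Nd2 ran from -0.59 to -0.48 and mt-Atp6 from -0.34 to -0.25. mt-Nd6 had the widest range, from -4.81 in EEC-like (3 KO and 54 WT UMIs, interval -7.13 to -3.18) to -2.75 in TC-like barcodes (5 and 39 UMIs, -4.45 to -1.41), with intervals that overlapped. As a share of all UMIs, mt-Cytb was higher in KO in all 8 classes, as were 11.0% of the 12767 genes. mt-Nd2, mt-Nd4, mt-Nd5, mt-Nd6 and mt-Atp6 were lower in KO in all 8, against 28.9% of all genes. A lower value in every class was thus common among all genes.

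**Figure D1:**
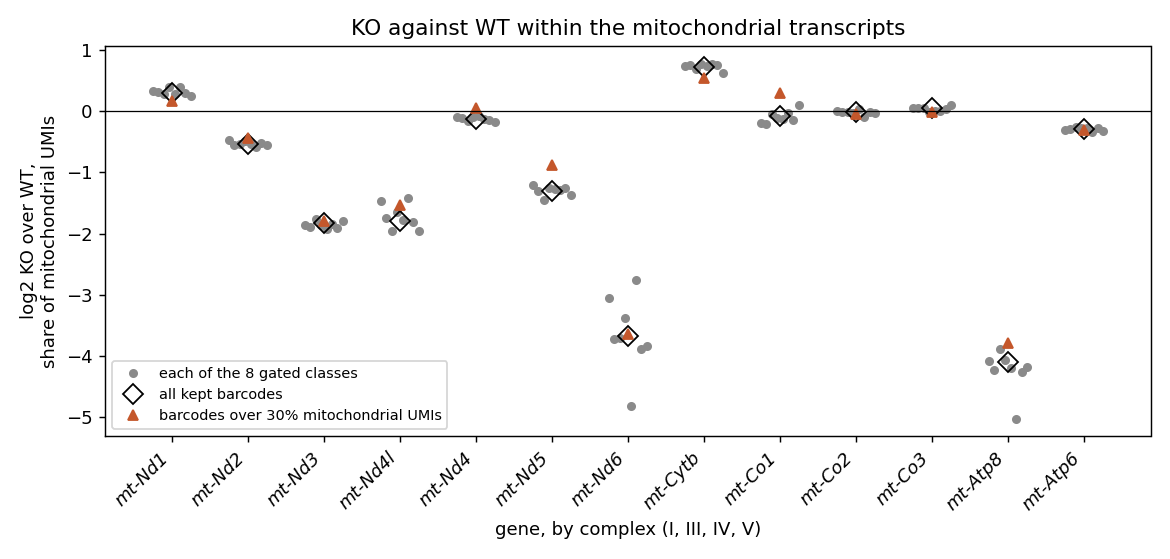
Log2 ratio of KO to WT of each gene's share of the mitochondrial UMIs (vertical axis) for the 13 mitochondrial genes ordered by complex. Grey points are the 8 gated classes, open diamonds all kept barcodes and triangles the barcodes over 30% mitochondrial UMIs; mt-Cytb lies near 0.72 and mt-Nd6 near -3.67, and the classes lie close together for the genes other than mt-Nd6, mt-Atp8 and mt-Nd4l.

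UMIs of neighbouring genes were also read against each other. mt-Atp8 and mt-Atp6 lie on the same messenger, as do mt-Nd4l and mt-Nd4. Their ratios therefore compare counts assigned within a messenger and not levels of separate transcripts. How the reads were assigned was not tested. For every 1000 UMIs of mt-Atp6, kept barcodes had 12.7 UMIs of mt-Atp8 in WT and 0.901 in KO. Over the classes this was 11.6 to 14.7 in WT and 0.456 to 0.979 in KO. For every 1000 UMIs of mt-Nd4 there were 89.9 of mt-Nd4l in WT and 28.2 in KO, with class ranges of 76.7 to 100.3 and 25.2 to 32.1. For every 1000 UMIs of mt-Nd5 there were 50.7 of mt-Nd6, which lies opposite its end, in WT and 9.80 in KO.

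The summed level of the 10 transcripts differed far more between cell classes than their proportions did. PC-like barcodes, which are filled with antimicrobial peptide transcripts, had the lowest share of all UMIs, 1.73% in WT and 1.92% in KO. mEC-like barcodes, the absorptive cells of the villus, had the highest, 11.0% in WT (log2 ratio to PC-like 2.67) and 8.90% in KO (2.21). Between them in WT came GC-like at 5.79%, EEC-like at 7.12%, TAC-like at 7.58%, TC-like at 7.85%, CBC-like at 8.50% and imEC-like at 8.70%. In KO these were 5.51%, 6.94%, 6.58%, 7.03%, 7.62% and 7.32%. The spread over barcodes within a class was wide: the quartiles were 8.75% and 13.1% in WT mEC-like barcodes, 7.01% and 10.2% in imEC-like and 6.49% and 10.8% in CBC-like, so neighbours in this order overlapped. The quartiles of PC-like barcodes, 0.883% and 2.59% in WT and 0.992% and 3.27% in KO, lay below those of the other classes in the same matrix.

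**Figure D2:**
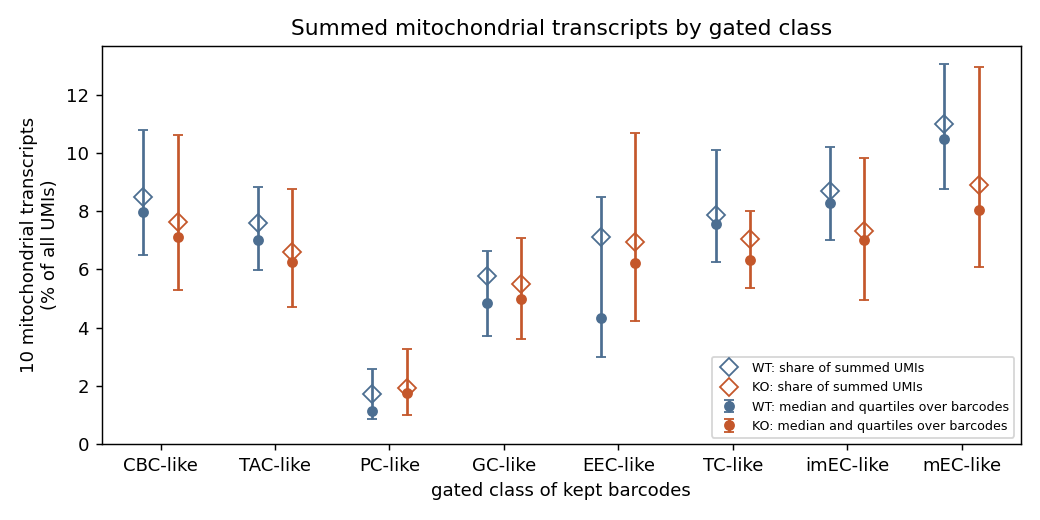
Share of all UMIs taken by the 10 mitochondrial transcripts (percent, vertical axis) in each gated class of WT and KO barcodes. Filled points and bars are the median and quartiles over barcodes and open diamonds the share in the summed UMIs; PC-like barcodes are lowest (1.73% in WT, 1.92% in KO) and mEC-like highest (11.0% and 8.90%).

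Every member followed this order at its ends. Each of the 10 was lowest in PC-like barcodes in both matrices, and each was highest in mEC-like barcodes except mt-Nd6 in KO, which was highest in TC-like barcodes on 5 UMIs. Over the other 7 classes the fold above PC-like barcodes ran from 3.04 to 6.30 for mt-Nd2, from 3.15 to 6.08 for mt-Cytb and from 3.47 to 6.93 for mt-Co3 in WT. In KO it ran from 2.72 to 4.54, from 2.86 to 4.26 and from 2.85 to 5.22. As a part of the mitochondrial UMIs, the highest class of a member exceeded its lowest by 1.05-fold (mt-Co2 and mt-Atp6) to 1.18-fold (mt-Co1) among 9 members in WT. For mt-Nd6 it did so by 1.83-fold, from 0.0556% in PC-like to 0.102% in EEC-like barcodes. The low level in PC-like barcodes went with the greatest depth, a median of 23073 UMIs in WT and 44901 in KO against 3168 to 8753 and 9453 to 18038 in the other classes, and a lower share of all UMIs cannot be told apart here from more transcripts of other genes. In member UMIs per barcode, PC-like barcodes had a mean of 394 in WT and 811 in KO. That was below mEC-like barcodes (638 and 906) but above EEC-like barcodes in WT (357).

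Whether the summed level was higher or lower in KO depended on which barcodes were read together. Summed over all kept barcodes, the 10 transcripts took 4.33% of WT UMIs and 5.14% of KO UMIs, a log2 ratio of 0.25 (0.24 to 0.25). Within classes it was lower in KO in 7 of 8, with log2 ratios of -0.30 in mEC-like, -0.25 in imEC-like, -0.20 in TAC-like, -0.16 in TC-like, -0.16 in CBC-like, -0.07 in GC-like and -0.04 in EEC-like barcodes, and higher in PC-like barcodes at 0.15 (0.15 to 0.16). PC-like barcodes gave 56.2% of the UMIs in WT and 38.3% in KO. Without them the log2 ratio over kept barcodes was -0.10. With the WT class shares applied to both matrices it was -0.09, but this value used gated barcodes only. It left out the barcodes without a class, 31.3% of the kept ones in WT and 47.1% in KO.

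The direction within classes in turn depended on depth and on how the classes were made, as the median over classes was -0.16 with the gate and 0.049 with clusters in its place. KO barcodes were deeper in each class, and in most classes the barcodes above the class median of depth had the lower share: in KO TAC-like barcodes 8.61% below the median and 5.63% above it, and in WT 8.85% and 6.91%. WT GC-like (5.66% and 5.85%) and WT EEC-like barcodes (6.18% and 7.46%) went the other way. Among barcodes with 5000 to 10000 nuclear UMIs, the share was higher in KO in 5 of the 6 classes with at least 20 barcodes in each matrix. It was 7.85% in WT and 11.5% in KO for TAC-like, 5.59% and 8.44% for GC-like, 8.77% and 11.6% for imEC-like, 8.90% and 10.2% for CBC-like and 2.65% and 5.31% for PC-like barcodes (31 in KO). mEC-like barcodes were lower in KO, at 10.1% and 9.16%, but depth was not equal within this window, with a median of 5837 nuclear UMIs in WT and 8095 in KO, and over the whole class the median mEC marker score was 538 UMIs per 10000 in WT and 1065 in KO. Among barcodes with 10000 to 20000 nuclear UMIs, PC-like barcodes had 1.96% in WT and 3.94% in KO, TAC-like 6.87% and 6.91%, GC-like 6.14% and 5.72%, and mEC-like 8.61% and 7.51%. Of the 6 classes, only PC-like (higher) and mEC-like barcodes (lower) had the same direction in the full class and in both depth windows. In mean member UMIs per barcode KO was higher in all 8 classes, from 0.51 log2 units in mEC-like to 1.44 in EEC-like barcodes.

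Over all barcodes with at least 200 genes, the share of the 10 transcripts was higher the fewer nuclear UMIs a barcode had. In WT it was 29.8% at 500 to 1000 nuclear UMIs, 17.8% at 1000 to 2000, 9.93% at 2000 to 5000, 7.46% at 5000 to 10000, 4.57% at 10000 to 20000 and 1.69% above. In KO it was 39.2%, 30.6%, 19.6%, 9.78%, 6.89% and 3.19%. KO was above WT in each of these bins. In kept barcodes KO was the lower at 500 to 1000 nuclear UMIs (11.0% against 11.6% in WT). From there the share was first higher with depth, at 12.03% in WT and 14.97% in KO at 1000 to 2000 and 15.2% in KO at 2000 to 5000. Barcodes under 500 nuclear UMIs are not in these values. Of them 26 were kept in WT and 111 in KO, with shares of 18.8% and 24.1%. PC-like barcodes were 93.5% of the deepest WT bin and 46.1% of the deepest KO bin. In kept barcodes, those with fewer than 2000 nuclear UMIs had a log2 ratio of 2.17 in WT and 1.60 in KO over those with at least 10000. Without PC-like barcodes it was 1.02 and 1.08. The limit on mitochondrial UMIs sets much of this value, which was 1.47 in WT and 0.39 in KO with a limit of 15% and 3.18 and 3.16 with no limit.

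**Figure D3:**
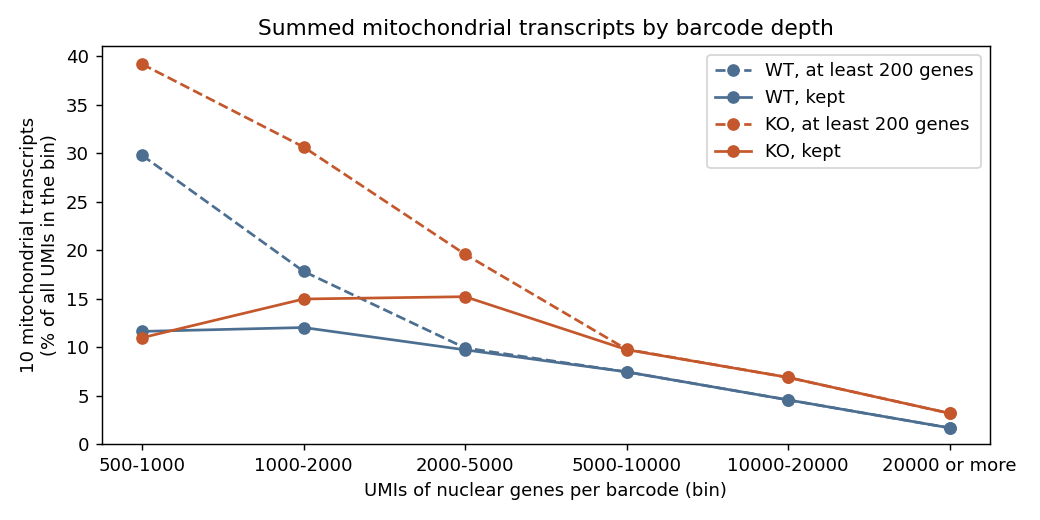
Share of all UMIs taken by the 10 mitochondrial transcripts (percent, vertical axis) in bins of nuclear UMIs per barcode from 500 upward, for barcodes with at least 200 genes (dashed) and kept barcodes (solid). The dashed lines fall from 29.8% to 1.69% in WT and from 39.2% to 3.19% in KO, and the 30% limit lowers the shallow bins.

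The proportions also moved with depth, in like ways for several members but not for all. Cell class changed with depth too, as the deepest bin was 93.5% PC-like in WT and 46.1% in KO. From kept barcodes with 500 to 1000 nuclear UMIs to those with 20000 or more, mt-Nd1 went from 4.25% to 5.64% of the mitochondrial UMIs in WT and from 4.64% to 7.24% in KO. mt-Cytb went from 9.61% to 11.1% in WT and from 13.3% to 18.5% in KO. mt-Co3 went down, from 21.3% to 18.3% in WT and from 22.4% to 18.5% in KO. mt-Nd6 went from 0.123% (213 UMIs) to 0.0498% (531 UMIs) in WT and from 0.00760% (15 UMIs) to 0.00519% (122 UMIs) in KO. The differences between the matrices in mt-Cytb and mt-Nd6 were present in each of these bins. mt-Cytb was 9.61% to 11.1% in the 6 WT bins from 500 nuclear UMIs upward and 13.3% to 18.5% in the 6 KO bins. mt-Nd6 was 0.0498% to 0.123% and 0.00504% to 0.00926%.

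Barcodes over the 30% limit numbered 1898 in WT (11.9% of barcodes, 11.4% to 12.4%) and 4084 in KO (32.0%, 31.2% to 32.8%). The 10 transcripts took 42.1% of their UMIs in WT and 49.0% in KO, which the limit itself fixes in part. These barcodes were shallow, with a median of 723 nuclear UMIs in WT and 646 in KO, and only 19 WT and 133 KO barcodes had enough for the gate, so their classes were not described. What the limit does not use is the make-up of their mitochondrial UMIs. mt-Nd6 took the larger part there in both matrices, 0.116% against 0.0710% in WT (log2 ratio 0.71, 0.62 to 0.79) and 0.00933% against 0.00558% in KO (0.74, 0.51 to 0.97). mt-Co3 was also higher over the limit, 21.8% against 18.9% in WT and 21.5% against 19.5% in KO. mt-Nd1 was lower, 4.72% against 5.49% in WT and 5.32% against 6.78% in KO. mt-Cytb was lower too, 10.1% against 10.9% and 14.7% against 17.9%. Depth was not matched here, as kept barcodes were deeper. At 500 to 1000 nuclear UMIs, all barcodes with at least 200 genes can be read against the kept ones among them. mt-Nd1 was then higher, 4.49% against 4.25% in WT and 5.07% against 4.64% in KO. So was mt-Cytb, 9.86% against 9.61% and 14.0% against 13.3%. mt-Nd6 was lower in WT (0.118% against 0.123%) and mt-Co3 in KO (21.7% against 22.4%). mt-Nd6 in KO and mt-Co3 in WT stayed higher.

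Set against all kept barcodes, the matrices parted on other members. mt-Co1 was lower over the limit in WT, 12.1% against 14.6% (log2 ratio -0.27), and higher in KO, 14.8% against 13.9% (0.09). mt-Nd5 was lower in WT, 1.11% against 1.40%, and slightly higher in KO, 0.604% against 0.569%. All of these steps except that of mt-Nd6 were at most 1.27-fold. At 500 to 1000 nuclear UMIs this parting was not seen. With the barcodes over the limit included, mt-Co1 was 12.4% against 13.9% in kept ones in WT and 15.4% against 17.2% in KO. mt-Nd5 was 1.09% against 1.15% in WT and 0.610% against 0.634% in KO. KO against WT over the limit gave the directions seen in kept barcodes for mt-Cytb (log2 ratio 0.54), mt-Nd1 (0.17), mt-Nd2 (-0.43), mt-Atp6 (-0.31), mt-Nd5 (-0.88) and mt-Nd6 (-3.63), and the opposite direction for mt-Nd4 (0.05), mt-Co1 (0.29) and mt-Co3 (-0.02).

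**Figure D4:**
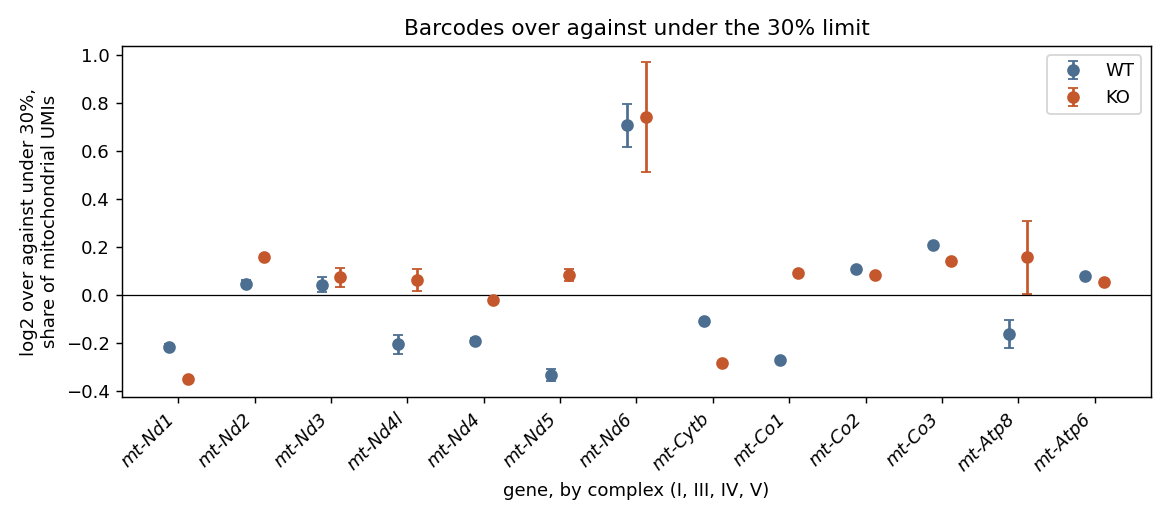
Log2 ratio of each gene's share of the mitochondrial UMIs in barcodes over 30% mitochondrial UMIs against kept barcodes, for WT and KO, with exact 95% counting intervals. mt-Nd6 stands highest in both (0.71 and 0.74), and mt-Co1 and mt-Nd5 lie on opposite sides of 0 in the matrices. Kept barcodes were the deeper ones, and depth was not matched.

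The nuclear partners of these proteins were read from a fixed list of 75 respiratory chain genes. In kept barcodes 69 of the 75 were at least 1.5-fold higher in KO as a share of all UMIs and 0 were 1.5-fold lower (18.6% and 20.5% over all genes), with a median log2 ratio of 0.86. By complex, 34 of 37 genes of complex I, 3 of 4 of complex II, 9 of 9 of complex III, 10 of 10 of complex IV and 13 of 15 of complex V were past this fold. The highest were Ndufs8 (1.21) and Ndufc2 (1.21) of complex I and Sdhb (1.20) of complex II, and the lowest Atp5k (0.18), Sdha (0.09) and Ndufs1 (-0.12). PC-like barcodes, which gave fewer of the KO UMIs, had 0.811% of their UMIs in these genes in WT against 3.08% to 5.95% in the other classes. Within classes the median was smaller, from 0.15 in mEC-like (56 of 75 genes above 0) to 0.72 in EEC-like barcodes (74 of 75), while the median of all genes was -0.37 to -0.01. Summed member UMIs per UMI of the nuclear list were therefore lower in KO in every class, for example 2.22 in WT and 1.60 in KO for CBC-like, 1.85 and 1.33 for mEC-like and 2.13 and 1.58 for PC-like barcodes. KO barcodes were deeper in each class, and this ratio was not read at like depth.

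Genes that make and process mitochondrial RNA had no common direction. Of 19 measured in a list of such genes, 3 were at least 1.5-fold higher and 2 lower in KO (18.6% and 20.5% over all genes), with a median log2 ratio of 0.07. The highest were Tefm (1.12), the mitochondrial transcription elongation factor, Mterf4 (0.76) and Tfb1m (0.65). The lowest were Lrpprc (-0.58), which stabilizes mitochondrial messenger RNA, Ppargc1a (-0.59), a coactivator of mitochondrial biogenesis, and Gabpa (-0.76), a transcription factor of nuclear respiratory genes. Lists that move with cell handling differed between the matrices too: 3 nuclear-retained RNAs had a median log2 ratio of -0.83 (Malat1 -0.48, Neat1 -0.83), 10 genes induced by tissue dissociation -0.81, with 5 lower and 2 higher by 1.5-fold against 20.5% and 18.6% of all genes (Fos -1.22, Hspa1b 1.65), and 9 genes of apoptosis and stress -0.43. Their part in the mitochondrial values was not tested.

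The genes whose share of UMIs followed the summed members most closely were sought over 15 combinations of class and matrix with at least 50 barcodes, among 7941 nuclear genes with at least 500 UMIs in each matrix. They were Clca4b (Spearman's rho 0.97), Hsd17b4 (0.96), Acaa2 (0.95), Atp1b1 (0.94) and Clcn2 (0.93). Hsd17b4 and Acaa2 encode enzymes of peroxisomal and mitochondrial fatty acid oxidation, and Atp1b1 a subunit of the sodium pump. Acaa2 went from 29.7 UMIs per 1000000 in KO PC-like barcodes to 342 in WT mEC-like barcodes, and Atp1b1 from 93.7 to 1209 between the same classes. The combinations share libraries and depth, so these values describe the likeness only.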

How the data were processed

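Gene expression was measured by single-cell RNA sequencing in EpCAM+ crypt cells of WT and KO mice (4 labelled samples each, 1 pooled matrix per group). The deposited values were raw UMI counts for each gene in each barcode, written by Cell Ranger 4.0.0 per the file headers. The submitters' processing notes name Cell Ranger 2.1.1 and build mm10 instead; which is right was not resolved. The methods name a 3-prime v2 kit and chip chemistry v2 or v3, without saying which library used which.

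Barcodes were kept with at least 200 genes and at most 30% mitochondrial UMIs. Scrublet (scanpy 1.11.5) called 0 of 13095 WT and 0 of 8658 KO barcodes, which was taken as a failed call, and doublets stayed in. The study had removed doublets with DoubletFinder; those calls were not used here. Kept barcodes with at least 2000 nuclear UMIs were gated by summed markers per 10000 nuclear UMIs: 2000 for PC, 400 for GC, 200 for mEC, 50 for EEC, 8 for TC, 12 for TAC and 6 for CBC and imEC, with at least 3 marker UMIs from 2 genes. The first 5 of these classes were read first, then TAC, then CBC and imEC; barcodes in more than 1 class were left out. UMIs were summed per class, depth bin or set. Shares have Clopper-Pearson intervals and log2 ratios exact conditional binomial intervals (scipy 1.17.1); PCR and sampling of animals are not covered. The interval code was tested on simulated data. For values of 0 a limit of 3 counts is given beside the exact interval.

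Named were all 10 members, the other 3 mitochondrial genes, the 3 highest and 3 lowest of the nuclear respiratory chain and mitochondrial RNA machinery lists with at least 50 UMIs in each matrix, and the 5 nuclear genes most alike over classes. Genes of the handling lists and Ctnnb1 were named after their values had been seen. Of the RNA machinery list 19 of 20 genes were found. The members and lists were chosen with earlier results of these data known. Alternatives were other limits on genes and mitochondrial UMIs, other denominators, thinning to 1000 UMIs, removal of the 10% of barcodes with the highest Scrublet score, a stricter gate (1.5 times the cuts) and clusters in place of the gate. Positions and sequences come from GENCODE M21.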

Additional observations from a re-analysis of the deposited data

Results flagged for a closer look

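The summed level of the 10 transcripts was higher in KO in PC-like barcodes, with a log2 ratio of 0.15, whereas all other 7 classes were lower. Classes moving in opposite directions drew attention to it, and the difference was not tested. The contrast varied with depth. At 5000 to 10000 nuclear UMIs, TAC-like (0.55), GC-like (0.59), imEC-like (0.40) and CBC-like barcodes (0.20) were higher in KO too, and mEC-like barcodes (-0.14) lower. At 10000 to 20000, GC-like (-0.10), imEC-like (-0.045) and mEC-like barcodes (-0.20) were lower, and CBC-like (0.07) and TAC-like barcodes (0.008) higher. For mt-Co1 the KO to WT ratio of the share of mitochondrial UMIs was 0.10 in mEC-like and -0.20 in TAC-like barcodes. For mt-Co3 it was 0.10 in mEC-like and -0.016 in GC-like barcodes. Both sets of intervals lay on opposite sides of 0, and neither difference was tested over samples.

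Barcodes with fewer than 200 genes, which enter no comparison, held a signal of the same transcripts: 47.0% of the UMIs of 994 WT barcodes and 56.4% of those of 21 KO barcodes. In these WT barcodes mt-Nd6 was 0.118% and mt-Co3 23.5% of the mitochondrial UMIs. In the KO barcodes mt-Nd6 and mt-Atp8 had 0 UMIs, which allows up to 0.0319% of the mitochondrial UMIs.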

How the results depend on the processing

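No paired analysis was possible because each group was 1 pooled matrix and no barcode could be tied to a numbered sample. Values are log2 ratios, and the counting intervals are so narrow at this depth that most alternatives left them by small steps. KO against WT over kept barcodes (0.25) was 0.26 with at least 500 genes, 0.21 with a 15% limit, 0.54 with no limit, 0.26 against nuclear UMIs, 0.25 as a mean of barcode shares, 0.23 thinned to 1000 UMIs (1468 WT and 2257 KO barcodes left out) and 0.24 without the highest Scrublet scores. It turned to -0.10 without PC-like barcodes and to -0.094 with WT class shares over gated barcodes only, 2 alternatives added after the data had been seen. The median over gated classes (-0.16) was -0.20, -0.13, -0.17, -0.073, -0.081 and -0.17 under the 15% limit, no limit, nuclear UMIs, mean of shares, thinning and Scrublet scores, and -0.077 with the stricter gate. It turned to 0.049 with clusters in place of the gate. The clusters also took in shallower barcodes. Among barcodes with 5000 to 10000 nuclear UMIs the median turned to 0.48, and it was -0.018 among those with 10000 to 20000, windows also added later. The direction of the summed level between KO and WT is therefore not settled by these data.

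mEC-like over PC-like barcodes kept its direction: in WT (2.67) it was 2.52, 2.68, 2.81, 2.50, 2.49 and 2.98 under the 15% limit, no limit, nuclear UMIs, mean of shares, thinning and Scrublet scores, 2.89 with the stricter gate and 2.46 with clusters. In KO (2.21) these were 2.003, 2.27, 2.32, 1.76, 1.75, 2.50, 2.58 and 2.17. Shallow over deep barcodes in WT (2.17) was 2.20 with at least 500 genes, then 1.47, 3.18, 2.32, 1.80, 1.96 and 2.35 in the order above, 1.02 without PC-like barcodes and 2.01 with bins of all UMIs. In KO (1.60) these were 1.86, 0.39, 3.16, 1.74, 1.11, 1.49, 1.66, 1.08 and 1.42. The 3 members past 1.5-fold became 4 with no limit and stayed 3 under the other 6 alternatives run.

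For each gene's share of mitochondrial UMIs 7 alternatives were run. mt-Cytb stayed between 0.63 and 0.73, mt-Nd6 between -3.80 and -3.51, mt-Nd5 between -1.33 and -1.22 and mt-Nd1 between 0.22 and 0.32. Only mt-Co1 (-0.07) turned, to 0.002 with no limit, 0.02 as a mean of shares and 0.038 when thinned.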
